A study of Mus musculus with 11 samples.

Results

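Antiviral interferon-stimulated genes are the genes that cells switch on after sensing type I interferon, and 37 of them were followed here through the liver and spleen of mice given the drug Curaxin-137. The genes were taken by name from a list of interferon-induced effectors, sensors and regulators. On an Illumina mouse bead array with 45281 probes, 36 of the 37 had a probe, 65 probes in all, and Ifi44 had none named here. All the mice, controls included, were Her2/neu transgenic, a model of breast cancer, with neither promoter nor strain given in the labels. Between 4 and 14 weeks of age, a span of 10 weeks, the treated animals received Curaxin-137 in the drinking water at 0.1 mg/ml or at 0.2 mg/ml and the controls had plain water. Liver was measured on 2 arrays from water-drinking mice (numbered 1 and 25), 2 at 0.1 mg/ml (43 and 55) and 2 at 0.2 mg/ml (73 and 85). Spleen was measured on 1 control array (8), 2 at 0.1 mg/ml (56 and 32) and 2 at 0.2 mg/ml (62 and 62_86). The last pair share a number in the labels, and whether they come from 1 mouse is not stated. The series' design text states 2 mice per treatment group without naming them, and 1 control spleen array was analysed here. No p-value below covers more than the variation among these few arrays.

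Type I interferons bind a receptor on nearly every cell and activate a complex that includes STAT2 and IRF9. That complex binds the interferon-stimulated response element (ISRE) in the promoters of its target genes. The products block viral RNA, protein synthesis, entry and budding, and some of them, such as Irf7, strengthen the response while others, such as Usp18, restrain it. In the spleen, plasmacytoid dendritic cells and macrophages are known sources and sensors of interferon, and in the liver both hepatocytes and Kupffer cells respond to it. Curaxins are small DNA-binding molecules known to lock the chromatin factor FACT in place, with p53 switched on and NF-kB signalling reduced. The comparisons below ask whether the antiviral genes differed between doses, and whether liver and spleen took the same steps.

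The promoters of 5 of the genes are shown as the 250 bases before the gene start, read 5′ to 3′ on the gene's own strand from RefSeq sequence of build GRCm38.p6. Capitals mark matches to the ISRE core, searched as GAAANNGAAA on both strands (TTTCNNTTTC on the other strand), with overlapping matches counted. Ifit3 lies at chr19:34583279-34583528 (plus strand), Oas1g at chr5:120887614-120887863 (minus), Isg15 at chr4:156200819-156201068 (minus), Rsad2 at chr12:26456453-26456702 (minus) and Oasl2 at chr5:114896684-114896933 (plus). Ifit3 and Oasl2 had the smallest p-values of the list in the spleen dose step, Rsad2 followed Ifit3 in the liver step, and Isg15 had its lowest liver values at the low dose. Oas1g was picked for its match close to the start. The 5 are therefore examples and do not stand for the list or for its dose steps.
Ifit3: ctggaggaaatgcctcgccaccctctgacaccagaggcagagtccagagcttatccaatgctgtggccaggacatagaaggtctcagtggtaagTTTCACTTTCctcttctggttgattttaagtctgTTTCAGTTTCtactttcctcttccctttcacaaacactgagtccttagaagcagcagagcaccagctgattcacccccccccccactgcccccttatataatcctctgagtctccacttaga
Oas1g: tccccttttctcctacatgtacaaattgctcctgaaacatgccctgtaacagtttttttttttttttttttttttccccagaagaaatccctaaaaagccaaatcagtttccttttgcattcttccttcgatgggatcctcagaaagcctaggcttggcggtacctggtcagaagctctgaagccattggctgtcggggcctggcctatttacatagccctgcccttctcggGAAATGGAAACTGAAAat
Isg15: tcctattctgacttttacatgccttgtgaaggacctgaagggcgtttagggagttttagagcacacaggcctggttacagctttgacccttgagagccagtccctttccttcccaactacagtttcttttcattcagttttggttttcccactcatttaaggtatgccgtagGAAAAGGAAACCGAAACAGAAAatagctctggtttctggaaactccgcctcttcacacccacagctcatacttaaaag
Rsad2: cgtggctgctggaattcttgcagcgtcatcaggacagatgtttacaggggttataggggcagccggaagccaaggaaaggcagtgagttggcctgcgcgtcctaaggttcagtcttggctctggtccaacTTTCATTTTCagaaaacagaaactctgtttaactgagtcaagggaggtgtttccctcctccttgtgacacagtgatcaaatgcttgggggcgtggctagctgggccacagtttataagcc
Oasl2: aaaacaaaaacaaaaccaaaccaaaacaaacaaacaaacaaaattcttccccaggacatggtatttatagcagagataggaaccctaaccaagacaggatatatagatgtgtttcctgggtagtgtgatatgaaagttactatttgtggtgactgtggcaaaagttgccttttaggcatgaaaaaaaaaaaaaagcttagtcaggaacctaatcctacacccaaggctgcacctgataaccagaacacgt
Ifit3 held 2 separate matches, whose first bases lay 156 and 122 bases before the start. Isg15 held 3 overlapping matches in 1 stretch of 22 bases, the nearest beginning 66 bases before the start, and Oas1g held 2 overlapping matches in a stretch of 16 bases. Rsad2 held 1 match, 120 bases before the start, and Oasl2 held none. In windows of 300 bases, from 250 before to 50 after a start, the core was found in 13 of the 27 listed genes that had a window. Counted by window, 14 of their 32 windows (43.8%) held it, against 3.44% of all 32851 mouse windows. Letters that match are a description of the sequence, not a measured binding site.

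The arrays carried the marks of their tissue. On values of both tissues processed together, the hepatocyte gene Apoa1 averaged 13.34 ± 0.15 (SD, n = 6) in liver and 4.64 ± 0.19 (SD, n = 5) in spleen on the log2 intensity scale, and the B cell gene Cd79b averaged 4.36 ± 0.26 and 11.87 ± 0.37. Between 35.8% and 43.2% of probes had a detection p-value under 0.05 on an array, and mean raw intensities ran from 94.7 on spleen 32 to 219 on spleen 56. A pair of arrays stood apart from their partners. Control liver 25 carried neutrophil markers far above the other livers, with 6 of 12 tested and a median 2.58 above the liver mean against -0.88 to -0.17 on the other 5. Spleen 32 carried high neutrophil markers (11 of 12 tested, 1.86 above the spleen mean against -1.12 to -0.06) and high erythroid markers (6 of 10 tested, 1.69 against -0.45 to 0.01). Its monocyte markers were also the highest (4 of 8 tested, 0.79 against -0.48 to 0.13). Its B cell, T cell, natural killer cell and dendritic cell markers were the lowest of the 5 spleens. The control livers correlated at r = 0.971 over the features tested, the lowest value of any liver pair, and the spleens at 0.1 mg/ml at r = 0.949, the lowest of any spleen pair, while the spleens at 0.2 mg/ml reached r = 0.989. In whole tissue, fewer cells of a type and less RNA per cell cannot be told apart.

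Of the 36 genes with a probe, 31 were kept in liver and 31 in spleen, a probe being kept when 2 or more arrays of the tissue called it present (detection p-value under 0.05). Ifit1, Oas1a, Trim30a and Xaf1 were kept in neither tissue, Mx1 was not kept in liver and Ifih1 was not kept in spleen. The members that passed did so partly through the arrays where they were high, so the counts below describe them only.

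Between the doses, most antiviral genes read higher at 0.2 than at 0.1 mg/ml in both tissues. In liver 24 of 31 members read higher, with a median log2 difference of 0.34 against 0.01 for all 12800 features, and in spleen 25 of 31 did, with a median of 0.54 against -0.01 for all 14179. No member passed an adjusted p of 0.05 (limma with Benjamini-Hochberg adjustment) in either tissue, where 0% of all liver features and 0.00705% of all spleen features did, the latter being 1 unnamed probe. At an unadjusted p under 0.05, 12 members were higher in liver (background 5.12% of features) and 0 were lower (4.38%). In spleen 12 members were higher (4.93%) and 0 were lower (4.08%). The spleen count depended on settings: it was 3 where the arrays 62 and 62_86 counted as 1 sample (1.6% of features), and 4 with each array scaled to its 75th percentile (1.54%). The liver count was 5 without liver 43 (2.63% of features), and the liver median was 0.16 with an offset of 50.

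The values of the arrays themselves did not overlap between doses for most members. In liver both arrays at 0.2 mg/ml read above both at 0.1 mg/ml for 20 of 31 members, against 25.3% of all features, and below both for Adar alone, against 22.8%. In spleen the count was 19 of 31 higher, against 20.4% of features, and 2 lower, Oas3 and Trim25, against 20.0%. The 2 tissues share no array, and 15 of the 30 members tested in both were higher without overlap in both, against 7.04% of the 11299 features tested in both. These 15 are 15 of the 20 in liver and 15 of the 19 in spleen: Bst2, Dhx58, Dtx3l, Ifi27l2a, Ifit3, Irf7, Irf9, Oas1g, Oas2, Oasl1, Oasl2, Parp14, Parp9, Samd9l and Usp18. Some were weak in liver. There the Dtx3l step was 0.12 ± 0.22 (SE), with -0.02 for its second probe, and Parp9 and Oas1g were undetected at 0.1 mg/ml. At an unadjusted p under 0.05, 7 members were higher in both tissues, Bst2, Ifit3, Oas2, Oasl1, Oasl2, Parp14 and Samd9l, against 0.504% of features.

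**Figure D1:**
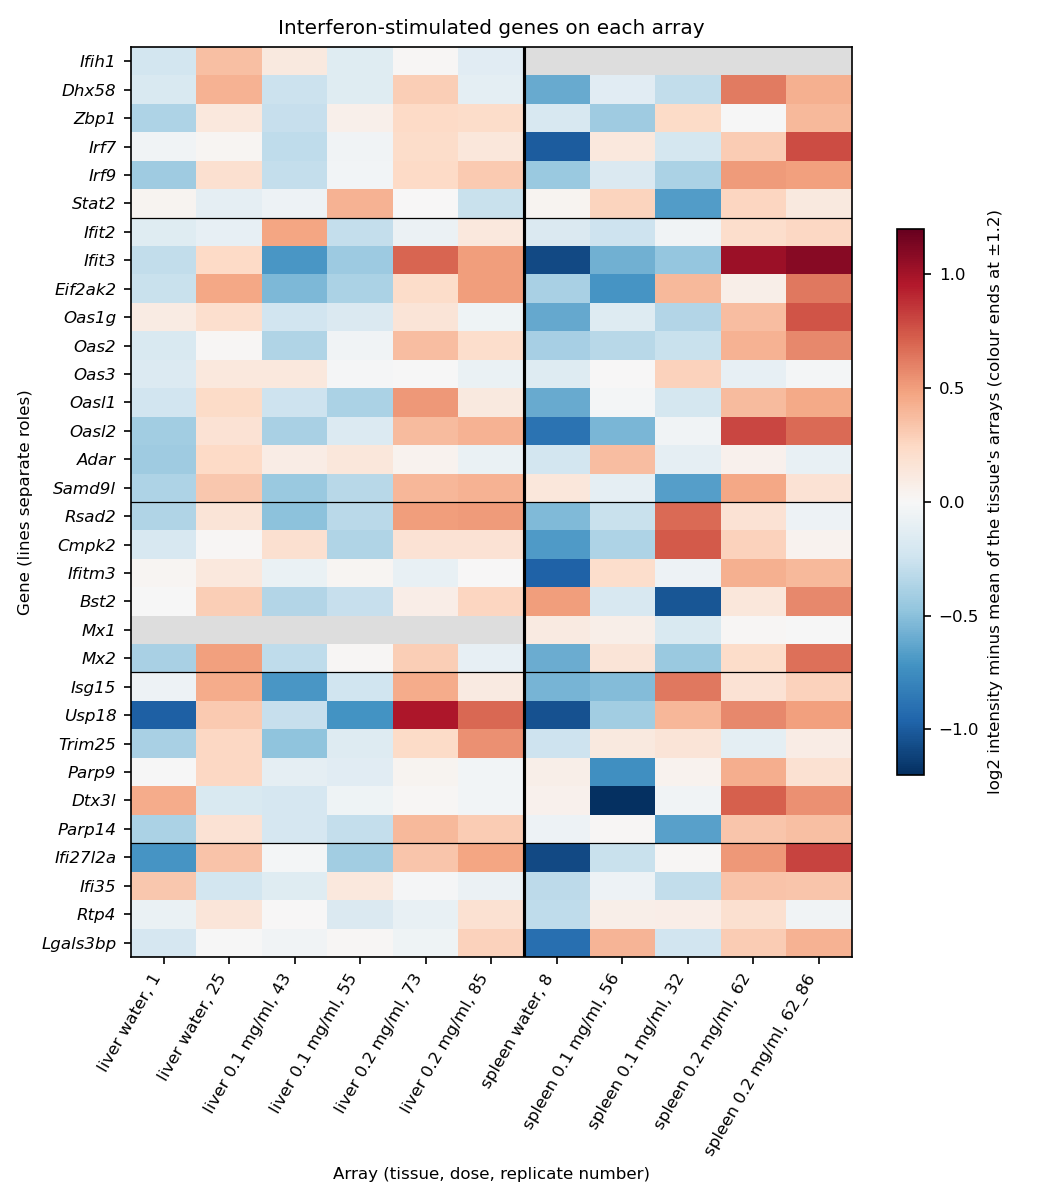
Each row is 1 gene and each column 1 array, coloured by the log2 intensity minus the mean of the arrays of that tissue, with grey where the gene was not tested in that tissue and lines between gene roles. The arrays at 0.2 mg/ml are red in most rows of both tissues, control liver 25 is redder than control liver 1, and spleen 32 is red for Isg15, Rsad2 and Cmpk2 but blue for Bst2, Samd9l and Parp14.

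Each dose was next compared with water. In liver at 0.1 mg/ml, 24 of 31 members read lower than control (median -0.15, against -0.00 for all features). The 3 members Bst2, Ifit3 and Isg15 were lower at an unadjusted p under 0.05 (background 1.88%), 0 were higher (2.13%) and no feature passed the adjusted test (0%). At 0.2 mg/ml, 22 of 31 read higher (median 0.19, against 0.01). Ifit3, Oasl2, Rsad2 and Usp18 were higher at an unadjusted p under 0.05 (4.94%), 0 members were lower (3.84%) and none passed the adjusted test (0% of features).

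The liver controls themselves spread widely. Control liver 25 read above control liver 1 for 28 of 31 members, against 51.1% of all features, and for 9 members, against 35.9% of features, it read above both livers at 0.2 mg/ml. Both livers at 0.2 mg/ml read above both controls for 12 members, against 20.2% of all features: Cmpk2, Ifit2, Ifit3, Irf7, Irf9, Oas2, Oasl2, Parp14, Rsad2, Samd9l, Usp18 and Zbp1. Leaving out control liver 25, the median at 0.2 mg/ml against control was 0.37 and 7 members passed the adjusted test (4.93% of features), and leaving out control liver 1 it was 0.08 and 0 passed (1.47%). At 0.1 mg/ml the median was -0.37 without control liver 1 and -0.0067 without control liver 25. Without control liver 1, or without control liver 25, 5 members passed in the step between doses (1.65% and 1.75% of features), which uses no control value but shares the estimate of spread. The part of the neutrophil markers of control liver 25 in these values was not tested.

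In spleen the members read higher than the single control at both doses. At 0.1 mg/ml, 24 of 31 were higher (median 0.36, against 0.02 for all features), with Ifi27l2a, Ifitm3, Irf7, Lgals3bp and Usp18 higher at an unadjusted p under 0.05 (5 members, background 4.66%), Bst2 lower (5.13%) and no feature past the adjusted test (0%). At 0.2 mg/ml, 29 of 31 were higher (median 0.75, against -0.00). An unadjusted p under 0.05 was reached by 14 members, all higher (3.26%), by 0 lower (2.42%), and the adjusted test by none (0%). The 14 became 9 with 62 and 62_86 as 1 sample (1.26% of features) and 7 with 75th percentile scaling (0.966%). For the same 29 members, both arrays at 0.2 mg/ml read above the control array, against 36.8% of all features. The control is 1 array, so its own spread is taken from the other groups. It also had the lowest mean log2 level of the 5 spleens for macrophage markers (8.17), endothelial markers (6.08), neutrophil markers (6.41) and erythroid markers (9.99), and their part in these differences was not tested.

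The RNA-directed effectors recognise or destroy viral RNA, or stop its translation, and 6 of the 10 tested in each tissue were higher at 0.2 than at 0.1 mg/ml at an unadjusted p under 0.05, against 5.12% of features in liver and 4.93% in spleen. Ifit3, a partner of the Ifit proteins that hold RNA lacking the host cap, had the smallest p of all members in both steps. Its log2 intensity was 5.48 and 6.01 in the control livers, 5.08 and 5.34 at 0.1 mg/ml and 6.48 and 6.28 at 0.2 mg/ml. In spleen it was 5.91 in the control, 6.42 and 6.52 at 0.1 mg/ml and 8.02 and 8.09 at 0.2 mg/ml. No group overlapped another in either tissue, with the low dose lowest in liver and the control lowest in spleen. The step from 0.1 to 0.2 mg/ml was 1.17 ± 0.22 (SE) in liver, ranked 26 by p among 12800 features (adjusted p = 0.284), and 1.58 ± 0.21 in spleen, ranked 7 among 14179 (adjusted p = 0.264). Against the control spleen Ifit3 was 2.14 ± 0.26 higher at 0.2 mg/ml, or 4.42-fold (adjusted p = 0.167). A second, dimmer Ifit3 probe gave steps of 0.29 in liver and 0.91 in spleen. That probe was detected on only 3 of the 6 liver arrays and 3 of the 5 spleen arrays. Its liver values ran from 4.173 to 4.616. In spleen it read 5.317 and 5.15 at 0.2 mg/ml and no higher than 4.45 on the other arrays. With the lower groups near background, its steps are not separate support. Whether either probe also reads Ifit3b was not tested.

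The oligoadenylate synthetases make the messenger that activates RNase L, and Oasl1 and Oasl2 are their relatives. Oasl2 read 4.68 and 5.27 in the control livers, 4.71 and 4.94 at 0.1 mg/ml and 5.48 and 5.52 at 0.2 mg/ml. Its spleen values were 5.92 in the control, 6.26 and 6.76 at 0.1 mg/ml and 7.61 and 7.49 at 0.2 mg/ml. The 0.2 mg/ml arrays lay above every other array of their tissue. The step was 0.67 ± 0.22 in liver (adjusted p = 0.448) and 1.04 ± 0.25 in spleen (adjusted p = 0.480), and against control Oasl2 was 0.52 ± 0.22 higher in liver and 1.63 ± 0.31 in spleen. On a second, dimmer Oasl2 probe kept in spleen the doses overlapped. It read 4.489 and 4.555 at 0.1 mg/ml and 4.459 and 5.083 at 0.2 mg/ml, a step of 0.249.

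Oas2 had closely placed replicates in spleen, at 4.51 in the control, 4.58 and 4.64 at 0.1 mg/ml and 5.33 and 5.49 at 0.2 mg/ml. It stood near the control at the low dose and 0.80 ± 0.22 above the low dose at the high one (adjusted p = 0.498). In liver it read 4.50 and 4.70 in the controls, 4.32 and 4.64 at 0.1 mg/ml and 5.05 and 4.89 at 0.2 mg/ml, a step of 0.49 ± 0.18. Oas1g was not detected in the control spleen, where it read 4.23, and read 4.68 and 4.49 at 0.1 mg/ml and 5.21 and 5.60 at 0.2 mg/ml. Against that undetected control it was at least 2.02-fold higher at 0.2 mg/ml, setting the control at the dimmest signal called present or at its own signal, whichever was higher, and it was 0.82 ± 0.24 above the low dose (adjusted p = 0.518). In liver a different Oas1g probe was used and was undetected at 0.1 mg/ml, with 0.2 mg/ml at least 1.10-fold higher. Oasl1 read 4.60 and 5.06 in the control livers, 4.58 and 4.45 at 0.1 mg/ml and 5.35 and 4.95 at 0.2 mg/ml, a step of 0.63 ± 0.21 (adjusted p = 0.454). Its control overlapped the high dose. In spleen the step was 0.54 ± 0.22, but a second Oasl1 probe kept in that tissue gave -0.20. Oas3 was near background, undetected at 0.2 mg/ml in both tissues, and its steps were -0.10 in liver and -0.20 in spleen.

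Eif2ak2 encodes PKR, the kinase that halts translation on binding double-stranded RNA. It read 6.95 and 7.68 in the control livers, 6.68 and 6.83 at 0.1 mg/ml and 7.44 and 7.72 at 0.2 mg/ml, so the low dose lay below both other groups. The liver step was 0.82 ± 0.25 (adjusted p = 0.432). In spleen the control read 7.15, the arrays at 0.1 mg/ml read 6.84 and 7.93 and those at 0.2 mg/ml 7.62 and 8.18, so the doses overlapped and the step of 0.51 ± 0.40 was little larger than its SE. Samd9l, a restriction factor against poxviruses, read 6.09 and 6.79 in the control livers, 6.02 and 6.13 at 0.1 mg/ml and 6.86 and 6.88 at 0.2 mg/ml (step 0.80 ± 0.23, adjusted p = 0.409). In spleen it read 10.77 in the control, 10.53 and 9.98 at 0.1 mg/ml and 11.10 and 10.81 at 0.2 mg/ml. There the low dose lay below the control and the high dose just above it, a step of 0.70 ± 0.27. Ifit2 gave steps of -0.07 in liver, where its second probe gave 0.51, and 0.38 in spleen. Adar, the editing enzyme that marks cellular double-stranded RNA as self, gave -0.14 and -0.15, and its probes disagreed in direction in both tissues.

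**Figure D2:**
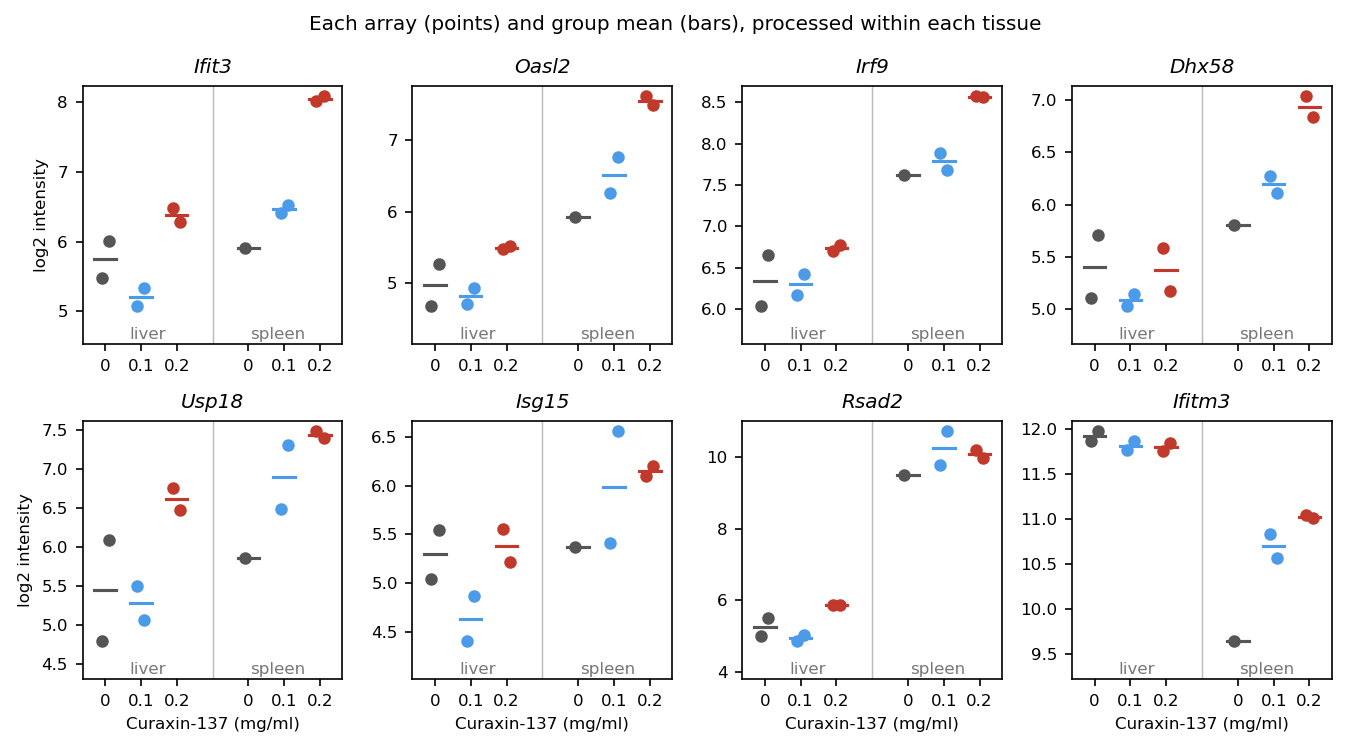
Log2 intensity of 8 genes on each array (points) with group means (bars) for the control (0) and both doses in mg/ml, liver at the left and spleen at the right of each panel, with a separate vertical scale for each gene. Ifit3, Oasl2, Irf9 and Dhx58 are highest at 0.2 mg/ml in spleen, Isg15 and Rsad2 have their highest spleen value on 1 array at 0.1 mg/ml, and Ifitm3 is at or above 9.65 on every array.

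Of the effectors that act on nucleotides or at membranes, 4 of 5 tested in liver and 4 of 6 in spleen read higher at 0.2 than at 0.1 mg/ml. Rsad2, or viperin, makes a chain-terminating nucleotide, and Cmpk2, its neighbour on chromosome 12, supplies the substrate. Rsad2 read 4.997 and 5.52 in the control livers, 4.87 and 5.04 at 0.1 mg/ml and 5.87 and 5.88 at 0.2 mg/ml, with the high dose above every other liver. The liver step was 0.92 ± 0.20 (adjusted p = 0.389), and against control Rsad2 was 0.61 ± 0.20 higher. In spleen it read 9.52 in the control, 9.78 and 10.73 at 0.1 mg/ml and 10.22 and 9.99 at 0.2 mg/ml, and both doses lay above the control. The highest value was spleen 32, so the doses overlapped and the step was -0.15 ± 0.34. Cmpk2 had the same order of spleen arrays at 0.1 mg/ml, 6.25 and 7.35, against 6.89 and 6.67 at 0.2 mg/ml and 5.94 in the control, and its spleen step was -0.02 ± 0.37. In all, spleen 32 read above both spleens at 0.2 mg/ml for 5 members, Cmpk2, Isg15, Oas3, Rsad2 and Trim25, against 34.2% of all features. The part of its high neutrophil, erythroid and monocyte markers in these values was not tested.

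Ifitm3, a membrane protein that blocks virus fusion in endosomes, lay close together on the liver arrays. In liver it read 11.86 and 11.97 in the controls, 11.76 and 11.86 at 0.1 mg/ml and 11.75 and 11.84 at 0.2 mg/ml, with a step of -0.02 ± 0.15. In spleen it read 9.65 in the control, 10.83 and 10.56 at 0.1 mg/ml and 11.04 and 11.01 at 0.2 mg/ml. Each treated spleen was above the control by nearly a unit or more, 1.05 ± 0.27 at 0.1 mg/ml (adjusted p = 0.457) and 1.38 ± 0.27 at 0.2 mg/ml (adjusted p = 0.358). Bst2, or tetherin, holds budding virions at the cell surface and read below control at the low dose in both tissues. It read 5.76 and 6.07 in the control livers, 5.42 and 5.50 at 0.1 mg/ml and 5.85 and 6.03 at 0.2 mg/ml. In spleen it read 5.99 in the control, 5.30 and 4.46 at 0.1 mg/ml and 5.62 and 6.07 at 0.2 mg/ml. At 0.1 mg/ml it was -0.46 ± 0.17 against control in liver and -1.11 ± 0.41 in spleen (adjusted p = 0.984 and 0.499), and the steps up to 0.2 mg/ml were 0.48 ± 0.17 and 0.96 ± 0.33. Bst2 is also a surface marker of plasmacytoid dendritic cells in the mouse, and other markers of that cell were read beside it in spleen: 7 of 9 tested were lower at 0.1 mg/ml than in control and 9 of 9 were higher at 0.2 than at 0.1 mg/ml (median 0.42). Their mean log2 level was 7.69 in the control, 7.52 and 6.86 at 0.1 mg/ml and 7.77 and 7.74 at 0.2 mg/ml, and their part in the Bst2 values was not tested. Mx2 read 4.80 in the control spleen, 5.55 and 4.95 at 0.1 mg/ml and 5.61 and 6.05 at 0.2 mg/ml, while Mx1 stayed near background on every spleen array, between 4.16 and 4.45.

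Among the protein modifiers, Isg15, a ubiquitin-like protein attached to viral and host proteins, and Usp18, the protease that removes it and damps the interferon receptor, are a linked pair. The difference of their steps between tissues was -0.73 ± 0.51 and -0.78 ± 0.59, neither past an unadjusted p of 0.05. Isg15 read 5.04 and 5.55 in the control livers, 4.41 and 4.87 at 0.1 mg/ml and 5.56 and 5.22 at 0.2 mg/ml. The low dose was below every other liver, at -0.66 ± 0.24 against control (adjusted p = 0.984), and the step up to the high dose was 0.75 ± 0.24 (adjusted p = 0.448). In spleen it read 5.37 in the control, 5.41 and 6.55 at 0.1 mg/ml and 6.10 and 6.20 at 0.2 mg/ml, with the doses overlapping and a step of 0.17 ± 0.38. Usp18 read 4.80 and 6.09 in the control livers, 5.51 and 5.06 at 0.1 mg/ml and 6.75 and 6.47 at 0.2 mg/ml. Its controls lay over a unit apart, and the high dose was above both, by 1.17 ± 0.38, and above the low dose by 1.33 ± 0.38 (adjusted p = 0.409). In spleen Usp18 read 5.86 in the control, 6.49 and 7.30 at 0.1 mg/ml and 7.48 and 7.40 at 0.2 mg/ml, a step of 0.54 ± 0.31. A second, dimmer Usp18 probe gave steps of 0.54 in liver and 0.65 in spleen. In liver it was detected on only 2 of the 6 arrays, reading 4.27 and 4.25 at 0.1 mg/ml and 4.81 and 4.78 at 0.2 mg/ml. It was kept there through the arrays where it was high, so its liver step is not separate support.

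The ADP-ribosyltransferase Parp14 and the pair Parp9 and Dtx3l, which act as a complex, also modify proteins after interferon. Parp14 read 6.57 and 7.11 in the control livers, 6.74 and 6.66 at 0.1 mg/ml and 7.33 and 7.25 at 0.2 mg/ml, a step of 0.60 ± 0.20 (adjusted p = 0.454). The spleen step was 0.67 ± 0.28. Dtx3l had its largest difference in spleen, where it read 7.85 in the control, 6.51 and 7.75 at 0.1 mg/ml and 8.50 and 8.34 at 0.2 mg/ml. The step of 1.29 ± 0.40 (adjusted p = 0.518) spans a wide pair at the low dose, and a second, dimmer Dtx3l probe gave -0.30. Parp9 was low on the same array, at 4.33, against 5.13 in the control, 5.11 on spleen 32 and 5.49 and 5.25 at 0.2 mg/ml. Trim25, the ubiquitin ligase that activates RIG-I, read 7.54 and 7.87 in liver at 0.1 mg/ml and 8.24 and 8.57 at 0.2 mg/ml, a step of 0.70 ± 0.25, with controls at 7.63 and 8.27 that overlapped both doses. In spleen both arrays at 0.1 mg/ml, at 8.84 and 8.88, were just above those at 0.2 mg/ml, at 8.60 and 8.81. A second, dimmer Trim25 probe gave steps of 0.34 in liver and -0.61 in spleen.

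Sensors and transcription factors of the pathway read higher at 0.2 than at 0.1 mg/ml in 5 of 5 tested in spleen (median 0.59) and 4 of 6 in liver (median 0.31). Irf9, the DNA-binding part of the STAT complex, read 7.62 in the control spleen, 7.89 and 7.68 at 0.1 mg/ml and 8.57 and 8.56 at 0.2 mg/ml. The control and the low dose lay close together and the high dose stood 0.78 ± 0.22 above the low one (adjusted p = 0.498). In liver Irf9 read 6.04 and 6.66 in the controls, 6.18 and 6.43 at 0.1 mg/ml and 6.70 and 6.78 at 0.2 mg/ml, a step of 0.44 ± 0.22. Dhx58, or LGP2, which binds viral RNA beside RIG-I and MDA5, read 5.81 in the control spleen, 6.27 and 6.11 at 0.1 mg/ml and 7.03 and 6.83 at 0.2 mg/ml (step 0.74 ± 0.22, adjusted p = 0.518). Its liver doses differed by 0.29 ± 0.24, with a control at 5.71 above both high-dose livers. Irf7, which drives interferon alpha genes, read 4.50 in the control spleen, 5.62 and 5.28 at 0.1 mg/ml and 5.80 and 6.28 at 0.2 mg/ml. It was above control at both doses, by 0.95 ± 0.32 and 1.54 ± 0.32 (adjusted p = 0.494 and 0.393), and its liver values ran from 4.39 to 4.92. Zbp1 gave steps of 0.34 in liver and 0.29 in spleen, and Stat2 gave -0.31 in liver and 0.39 in spleen, each within 2 SE. Ifih1, or MDA5, was near background in liver, with values from 4.26 to 4.84.

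Of the 4 remaining genes tested, Ifi27l2a, a mitochondrial interferon-induced protein, read 9.05 in the control spleen, 9.88 and 10.15 at 0.1 mg/ml and 10.66 and 10.95 at 0.2 mg/ml. The 3 groups were in order of dose without overlap, with 0.96 ± 0.29 at the low dose and 1.75 ± 0.29 at the high dose against control (adjusted p = 0.475 and 0.259) and a step of 0.79 ± 0.24. In liver it read 5.01 and 6.06 in the controls, 5.70 and 5.30 at 0.1 mg/ml and 6.05 and 6.20 at 0.2 mg/ml. Lgals3bp, a secreted glycoprotein, read 7.46 in the control spleen, 8.78 and 8.14 at 0.1 mg/ml and 8.67 and 8.79 at 0.2 mg/ml, so the doses overlapped above the control, by 1.00 ± 0.34 at 0.1 mg/ml. Ifi35 read 6.54 in the control spleen, 6.80 and 6.57 at 0.1 mg/ml and 7.20 and 7.19 at 0.2 mg/ml, and in liver its step was -0.03 ± 0.21. Rtp4 gave 0.13 in liver and -0.00 in spleen.

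**Figure D3:**
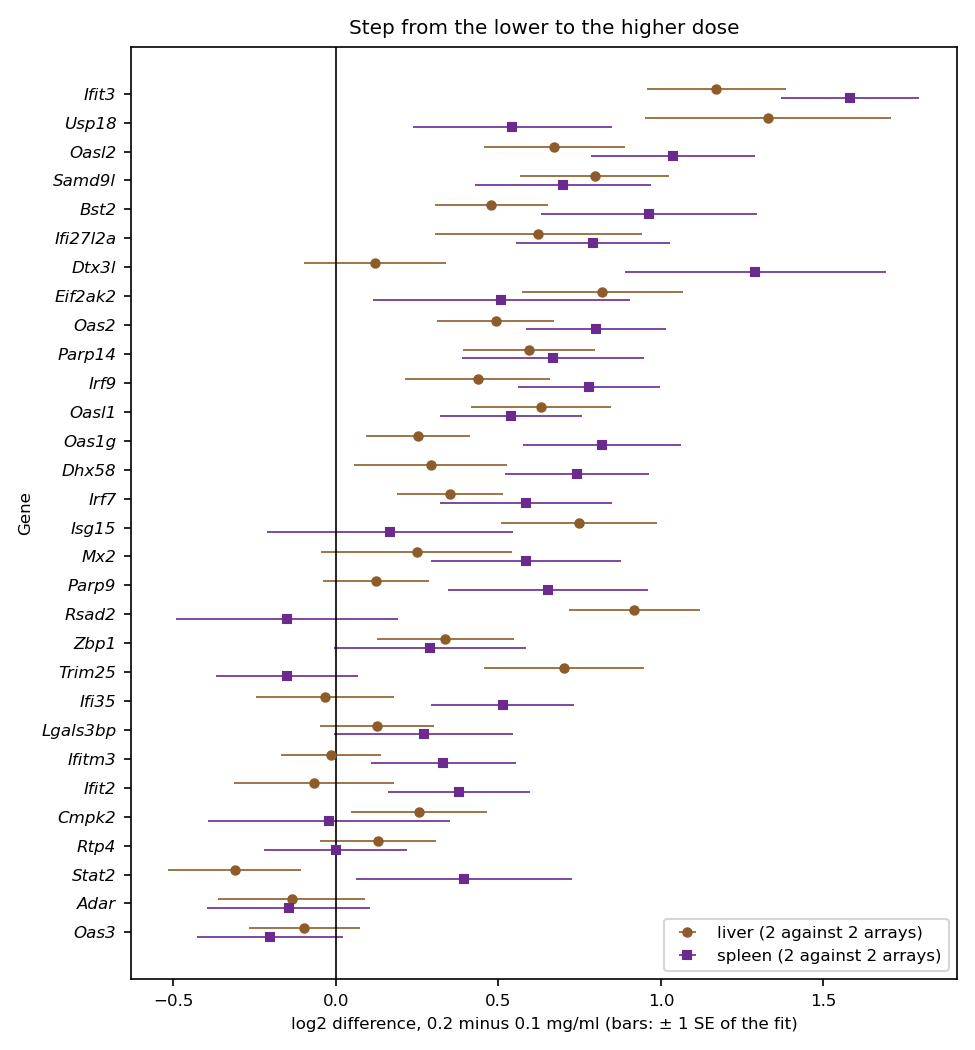
Log2 difference of 0.2 minus 0.1 mg/ml for the 30 genes tested in both tissues, liver as circles and spleen as squares, with bars of 1 SE, ordered by the sum of both. Ifit3 lies at 1.17 and 1.58, while Rsad2 and Trim25 lie at 0.92 and 0.70 in liver and at -0.15 and -0.15 in spleen.

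Whether the tissues took different steps was tested as the spleen difference minus the liver difference, with all 11 arrays processed together and 32 members tested among 16179 features. For 0.2 against 0.1 mg/ml 18 members had a higher value and 14 a lower one (median 0.09 against -0.01 for all features, and 0.28 with a stricter detection filter). Dtx3l had a larger step in spleen at an unadjusted p under 0.05 (background 4.05%), Trim25 and Rsad2 a smaller one (3.97%), and none passed the adjusted test (0.00618% of features). The differences were 1.26 ± 0.50 for Dtx3l, -0.80 ± 0.31 for Trim25, -1.12 ± 0.48 for Rsad2 and 0.55 ± 0.28 for Ifi35, with adjusted p from 0.601 to 0.662. That so few passed does not show that the steps were equal, since SEs of this difference ran up to 0.59.

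The same test was made for each dose against control. At 0.1 mg/ml, 25 of 32 members had a higher value of spleen minus liver (median 0.51 against 0.02), with 7 at an unadjusted p under 0.05 (4.72%), 0 lower (5.13%) and no feature past the adjusted test (0%). At 0.2 mg/ml, 26 of 32 did (median 0.45 against -0.01), with 8 higher at an unadjusted p under 0.05 (4.29%), 0 lower (4.05%) and no member past the adjusted test (0.0494% of features). Ifitm3 came nearest, at 1.72 ± 0.24 for 0.2 mg/ml against control (adjusted p = 0.0712). Its call changed with the processing. Its adjusted p was 0.0331 with no background correction, which here gives the same values as the authors' normalized table, 0.0241 with an offset of 50, 0.0391 with no detection filter and 0.0443 with the mean of a gene's probes. No member passed with the stricter filter, where the smallest adjusted p of a member was 0.119, with 62 and 62_86 as 1 sample (0.358), without control liver 1 (0.116) or with 75th percentile scaling (0.9998). Ifit3 followed at 1.57 ± 0.32 (adjusted p = 0.176) and Irf7 at 1.08 ± 0.33 (adjusted p = 0.398). All of these rest on the single control spleen.

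Levels were also compared between the tissues. Averaged over the 3 groups with equal weight, 12 of 32 members were higher in spleen at an adjusted p under 0.05, against 36.7% of features, and 4 were lower, against 25.6%. Rsad2 was 4.38 ± 0.21 higher in spleen on the log2 scale (adjusted p = 8.19e-08), Samd9l 4.08 ± 0.17 (adjusted p = 2.92e-08) and Ifi27l2a 3.99 ± 0.20 (adjusted p = 1.22e-07). Ifitm3 was lower in spleen, at -1.15 ± 0.10 (adjusted p = 4.18e-06), as were Mx2 at -1.11 ± 0.20, Dtx3l at -0.77 ± 0.22 and Bst2 at -0.75 ± 0.15. The share of members in each direction was near or below the background, so it sets the list apart from other genes in neither direction.

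The rest of the pathway was read from separate gene lists. Of 21 interferon ligand genes, 18 had a probe, and 3 were kept in liver and 5 in spleen. Ifnb1 and most interferon alpha genes were kept in neither tissue, so their levels were not measurable here. Ifng, interferon gamma, was kept in spleen and read 0.77 higher at 0.2 than at 0.1 mg/ml (adjusted p = 0.518) and 0.91 higher than control. The kept ligands as a set did not rise this way. Their median deviation from the spleen mean was -0.034 in the control, 0.033 and -0.044 at 0.1 mg/ml and 0.009 and 0.043 at 0.2 mg/ml. In liver it was 0.296 and 0.133 in the controls, -0.145 and -0.292 at 0.1 mg/ml and 0.033 and -0.113 at 0.2 mg/ml. Of the receptors and signalling genes, 9 of 13 in liver (median 0.21) and 12 of 15 in spleen (median 0.42) read higher at 0.2 than at 0.1 mg/ml, with Irf1 at 0.61 and 0.83. The nucleic acid sensors outside the list read higher in 5 of 11 in liver (median -0.02) and 10 of 15 in spleen (median 0.10). None of the genes in these lists passed the adjusted test in this step.

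Genes that interferon gamma also induces were read beside the members. The guanylate-binding and immunity-related GTPases, which attack the vacuoles of parasites and bacteria, read higher at 0.2 than at 0.1 mg/ml in 11 of 12 tested in liver (median 0.70) and 12 of 13 in spleen (median 0.73), with 7 and 8 of them at an unadjusted p under 0.05 (background 5.12% and 4.93%). Gbp2 was 0.94 higher in liver and 1.42 in spleen (adjusted p = 0.409 and 0.344). MHC class I antigen processing genes read higher in 17 of 23 in liver (median 0.29) and 22 of 22 in spleen (median 0.61). Among 50 further interferon-stimulated genes, 17 of 24 in liver (median 0.16) and 26 of 31 in spleen (median 0.34) read higher, led in spleen by the chemokine Cxcl10 at 2.21 (adjusted p = 0.199). Of all features, 6594 of 12800 in liver and 6888 of 14179 in spleen read higher in this step.

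Markers of other cells were read beside these differences. In liver, macrophage markers read higher at 0.2 than at 0.1 mg/ml in 12 of 14 tested (median 0.44), with mean log2 levels of 6.22 and 6.88 in the controls, 6.66 and 6.56 at 0.1 mg/ml and 6.85 and 7.26 at 0.2 mg/ml. Endothelial markers in liver read higher at 0.2 than at 0.1 mg/ml in 8 of 11 tested (median 0.35), with mean levels of 6.24 and 6.17 in the controls, 6.48 and 6.34 at 0.1 mg/ml and 6.59 and 6.70 at 0.2 mg/ml. Neutrophil markers in liver also differed between doses without overlap, with mean levels of 4.72 and 4.475 at 0.1 mg/ml and 5.16 and 5.375 at 0.2 mg/ml. Their control levels were 4.70 and 7.73. In spleen, macrophage markers were higher in 8 of 12 (median 0.59), natural killer cell markers in 6 of 6 (median 0.63) and erythroid markers lower in 5 of 6 (median -1.25). The erythroid mean level was 10.57 on spleen 56 and 12.08 on spleen 32, against 10.28 and 10.29 at 0.2 mg/ml. For neutrophil markers it was 7.12 and 9.28, against 7.22 and 7.41. Spleen 32 also had the lowest B cell, T cell and dendritic cell markers. The mean level over the members was lowest in the control spleen, at 6.39, and reached 6.63 and 6.72 at 0.1 mg/ml and 7.14 and 7.20 at 0.2 mg/ml. In liver it was 5.60 and 5.99 in the controls, 5.60 and 5.65 at 0.1 mg/ml and 6.04 and 5.99 at 0.2 mg/ml, so control liver 25 was level with the high dose. The part of macrophages, monocytes, endothelial cells, natural killer cells, erythroid cells, neutrophils, lymphocytes and dendritic cells in the members' values was not tested.

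**Figure D4:**
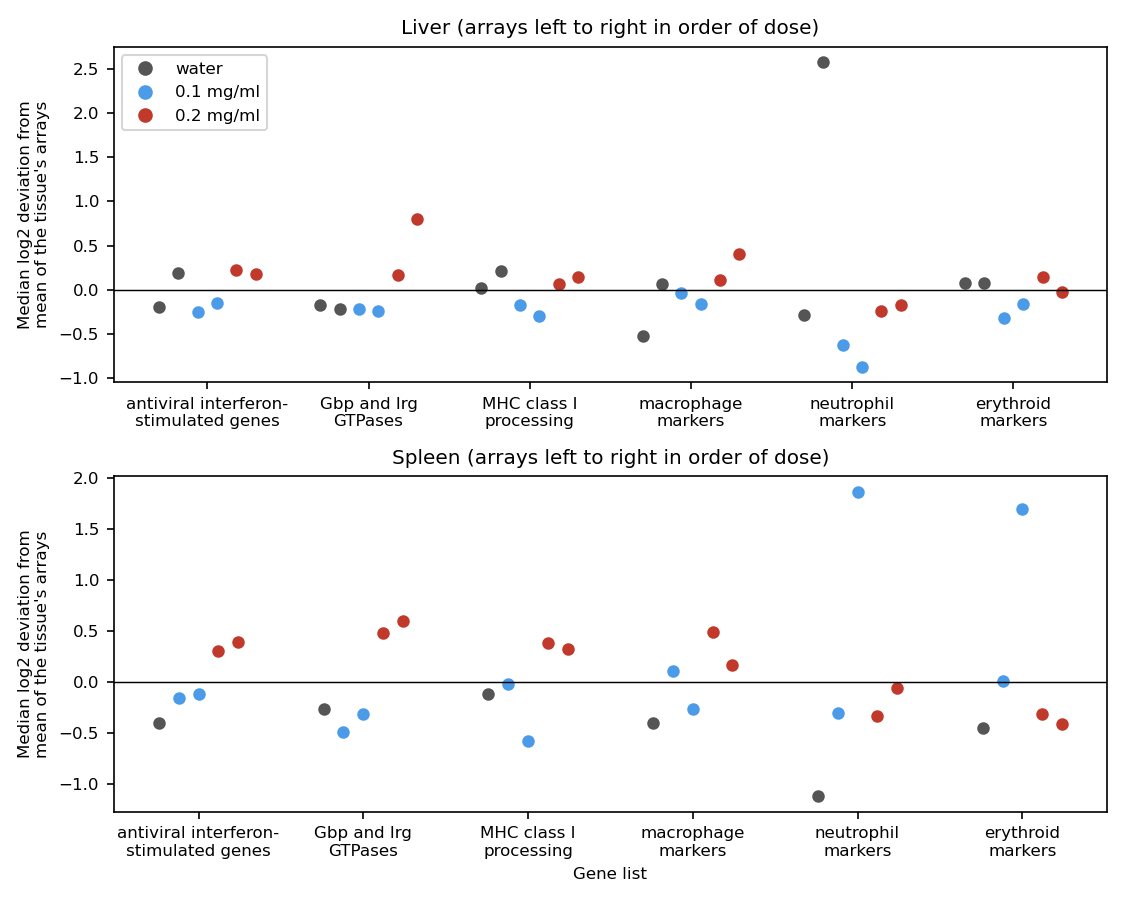
Median log2 deviation from the mean of the tissue's arrays for 6 gene lists on each array, coloured by dose, liver above and spleen below. The members and the Gbp and Irg genes are highest on the arrays at 0.2 mg/ml in spleen, while control liver 25 stands at 2.58 for neutrophil markers and spleen 32 at 1.86 for neutrophil and 1.69 for erythroid markers.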

How the data were processed

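Expression was measured on 6 liver and 5 spleen bead arrays. The deposited intensities are probe signals, with a detection p-value beside each, per the file headers. The submitters' processing notes name GenomeStudio 1.6.0. The deposited series matrix holds log2 values, which equal the log2 of the quantile-normalized signals, and was used as an alternative. Liver and spleen arrays were normalized separately by limma 3.58.1 (R 4.3.3), whose neqc corrects background by normexp with controls inferred from detection p-values, adds 16, equalises quantiles and takes log2, and all 11 arrays together for comparisons between tissues. A probe stayed in if 2 or more arrays called it present at 0.05, and the one with the highest mean stood for its gene. Genes were named from the platform annotation, in which 34885 probes carry 1 symbol, 18 carry several and 10378 carry none.

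Group means of a tissue were estimated with lmFit and moderated with eBayes over all features, with Benjamini-Hochberg adjustment over all of them and a threshold of 0.05. The script was tested on simulated data. The number of arrays limits the precision. Values per array are given for the members with the smallest unadjusted p, up to 8 in each step between doses, up to 4 in each dose against control and up to 4 in the difference of steps between tissues, and for other members where they complete a role. The members and the gene lists were chosen with earlier results of these data known. Alternatives were the scaling, background correction, offset, detection filter, choice of probe, joint processing, moderation, the shared spleen number and leaving out each array. Promoter sequences came from RefSeq tables (GRCm38.p6), matched by symbol for 27 of 37 genes. Figures were drawn with matplotlib 3.10.9.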

Additional observations from a re-analysis of the deposited data

How the results depend on the processing

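The members' medians kept their sign in all settings tried. Single members were followed through the settings only where they had the smallest p of a comparison, and none of those results was reversed. The results of other members were not followed. In the step between doses, kept probes disagreed in direction for Adar, Dtx3l and Ifit2 in liver and for Adar, Dtx3l and Oasl1 in spleen. The medians in spleen were smaller under several settings. For 0.2 mg/ml against control (0.75) the median was 0.63 with 75th percentile scaling, 0.58 with no background correction, 0.55 with the authors' normalized values, 0.52 with an offset of 50 and 0.58 with no detection filter. For 0.2 against 0.1 mg/ml (0.54) it was 0.35, 0.43, 0.35, 0.33 and 0.45 in the same order. For 0.1 mg/ml against control (0.36) it was 0.29 with no background correction, 0.23 with the authors' values, 0.21 with an offset of 50, 0.27 with no filter, 0.30 with the mean of a gene's probes and 0.25 with all arrays together. In liver the step between doses was 0.16 with an offset of 50, and the difference of steps between tissues had a median of 0.28 with a stricter detection filter. With the processing described above and every array kept, counts of members with an adjusted p under 0.05 were 0 in every comparison apart from tissue level. For spleen minus liver at 0.2 mg/ml against control, 1 member (Ifitm3) passed with no background correction, the authors' values, an offset of 50, no filter or the mean of probes, and none with the other settings that keep every array. Across the settings where Ifitm3 passed, between 0.0883% and 0.124% of all features did. With all arrays together 1 member passed in spleen at 0.1 mg/ml against control (Ifitm3, beside 0.346% of all features). At 0.2 mg/ml against control 2 passed (Ifit3 and Ifitm3, beside 0.614%), and between doses 1 did (Ifit3, beside 0.388%). Leaving out 1 array in turn gave medians from -0.37 (without control liver 1) to -0.0067 (without control liver 25) in liver at 0.1 mg/ml against control, and from 0.082 to 0.37 for the same arrays at 0.2 mg/ml against control. In spleen they ran from 0.29 (without spleen 32) to 0.38 at 0.1 mg/ml against control, from 0.69 (without spleen 62_86) to 0.78 at 0.2 mg/ml against control and from 0.47 (without spleen 62_86) to 0.59 between doses. The counts past the adjusted test ran from 0 to 1 in liver at 0.1 mg/ml against control (1 without control liver 1), from 0 to 7 at 0.2 mg/ml against control (7 without control liver 25) and from 0 to 5 between doses (5 without either control). In spleen they ran from 0 to 9 at 0.1 mg/ml against control, from 0 to 14 at 0.2 mg/ml against control and from 0 to 13 between doses, each highest without spleen 56 (15.2%, 5.66% and 13.3% of features), while without spleen 32 they were 4, 13 and 9 (9.45%, 4.19% and 8.77%). For spleen minus liver, members passed only without spleen 56 or without spleen 32, and they were partly different genes in the 2 cases. The share of all features past the adjusted test rose there as well. Among counts at an unadjusted p under 0.05, the 12 members higher in spleen between doses became 4 with 75th percentile scaling (1.54% of features). With the stricter filter they became 7 of 23 tested (4.95%). The 14 higher at 0.2 mg/ml against control became 7 with that scaling (0.966%). Both spleen counts also fell with 62 and 62_86 as 1 sample. In liver such counts changed widely with the array left out, and so did the share of all features. An array left alone in its group is assumed to vary like the other groups, so dropping 1 of the least alike pair leaves the spread to pairs that are more alike. Where the spleens 62 and 62_86 counted as 1 sample, no member passed, and Ifit3 had an adjusted p of 0.689 against control and 0.9998 between doses. No paired analysis was possible because no groups of a tissue share replicate numbers. Signals near background limit Oas3, Mx1, Ifih1 and Rtp4 in particular, each undetected on some of the arrays.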
